A study of Homo sapiens with 6 samples.

Results

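Myeloid cytokine receptors were followed in NB4 cells through a set of 10 genes. They are 9 receptor chains for colony stimulating factors and interleukins (CSF3R, CSF2RA, CSF2RB, IL2RA, IL2RG, IL4R, IL6R, IL6ST and IL10RA) and 1 ligand, oncostatin M (OSM). They were chosen by name, with earlier results of these data known. All 10 were found by Ensembl identifier among the 61806 genes listed. All 10 also passed the filter on low counts, which left 19485 genes for testing. NB4 is an established human line of acute promyelocytic leukaemia, a cancer of granulocyte precursors. The 6 libraries of poly(A) RNA, all labelled as 1 batch, came from 3 samples of NB4 cells made to overexpress CD69 by a stably expressed lentivirus (genotype label CD69-overexpression) and 3 samples of vector control NB4 cells (genotype label Wild-type), with no drug given to either. CD69 is a surface lectin of activated leukocytes. The sources used here do not name the vector's promoter. The replicates are called biological, yet no source ties them to separate transductions or cultures, and the p-values below therefore reflect only how much these 6 samples vary. Each group may be 1 transduced population.

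Most of these receptors have no enzyme activity of their own. A ligand brings 2 or more chains together, Janus kinases (JAKs) bound to their inner tails phosphorylate the chains, and STAT proteins dock there, move to the nucleus and switch on genes. Many chains are shared: CSF2RB serves GM-CSF, IL-3 and IL-5, IL2RG (the common gamma chain) serves IL-2, IL-4, IL-7, IL-9, IL-15 and IL-21, and IL6ST (gp130) serves IL-6, IL-11, LIF and oncostatin M. In the granulocyte lineage the G-CSF receptor CSF3R drives neutrophil formation, and GM-CSF acts on both neutrophils and monocytes.

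Total counts per library were 51543550 to 56239830 in the overexpressing libraries and 55716218 to 57463020 in the controls. Overexpressing replicate 1 stood apart from replicates 2 and 3, scoring 32.4 on the first principal component where those scored 74.8 and 74.3, and results that rest on it are given with and without it. CD69 itself had 98.3, 99.1 and 95.7 CPM (counts scaled to a common library size with TMM factors) in the overexpressing libraries and 80.4, 81.9 and 70.6 CPM in the controls. The groups did not overlap, but the rise in the overexpressed gene was small, 0.33 on the log2 scale (SE 0.07; edgeR adjusted p = 0.0153, lost without overexpressing replicate 2 at 0.0618, range 0.00293 to 0.0618). The promyelocyte markers were present in part: elastase (ELANE) had at least 100.2 CPM in every library, while myeloperoxidase (MPO), a defining enzyme of promyelocytes, had at most 1.45 CPM. In bulk RNA, fewer cells that carry a transcript and less of it per cell cannot be told apart.

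Among the 10 genes the data show 1 receptor chain that appeared, IL2RA, 1 that rose slightly, CSF2RA, and 1 that fell slightly, IL6R. The other 7 did not pass the test. IL2RA, the alpha chain of the high-affinity IL-2 receptor (CD25), had no count in any control. CSF2RA, the GM-CSF binding chain, was 1.26 times as high in overexpressing cells as in controls, and IL6R, the IL-6 binding chain, was 0.829 times as high. The 2 higher genes of 10 stand beside 14.2% of all 19485 tested genes called higher, and the 1 lower gene beside 9.94% called lower (quasi-likelihood test of edgeR, threshold 0.05 after Benjamini-Hochberg adjustment over all tested genes). These shares are close to the background, and IL2RA passed the filter on low counts only through the libraries in which it was high, so that among the tested genes it had to differ. The median log2 fold change of the 10 genes was -0.07 against 0.01 over all tested genes, and their median absolute change was 0.23 against 0.32. In 5 of the 10 genes the groups did not overlap (42.3% of all tested genes), 3 above the controls (23.0% of all tested genes) and 2 below (19.3%).

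**Figure D1:**
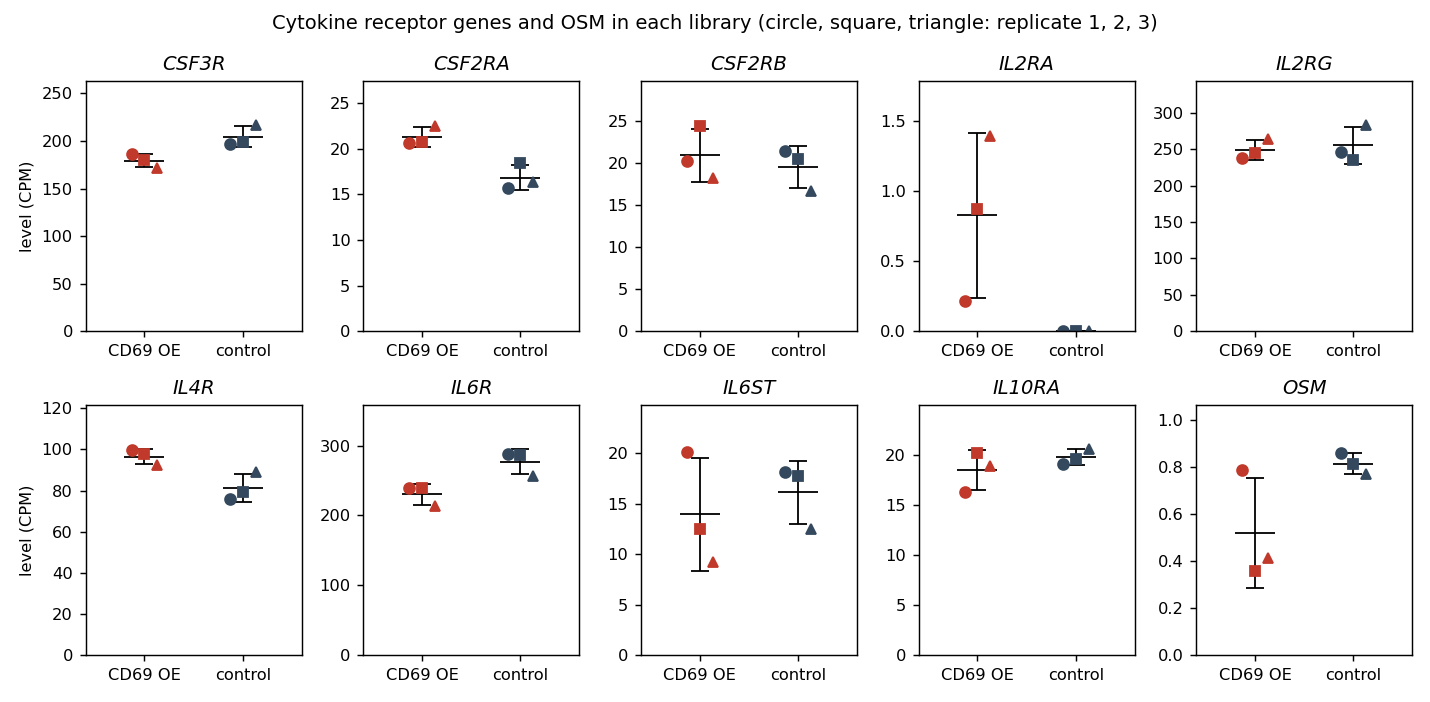
Level of each of the 10 genes in every library (y axis, CPM, starting at 0), CD69-overexpressing (CD69 OE) left and control right. Circles, squares and triangles are replicates 1, 2 and 3 and the black marks are mean and SD (n = 3). IL2RA is at 0 in all 3 controls, CSF2RA and IL4R lie above the controls in all 3 overexpressing libraries, and CSF3R and IL6R lie below.

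The stretches of 250 bases before the RefSeq start sites (GRCh38.p14) of the 3 genes that passed the test are shown, each 5′ to 3′ on the gene's own strand. Capitals mark matches on either strand to GAGGAA, the core recognised by the myeloid factor PU.1, or to GGGA and CC with any 4 bases between them, the NF-kB form. The windows are chr10:6062368-6062617, minus strand, for IL2RA, chrX:1268564-1268813, plus strand, for CSF2RA, and chr1:154405093-154405342, plus strand, for IL6R.
IL2RA: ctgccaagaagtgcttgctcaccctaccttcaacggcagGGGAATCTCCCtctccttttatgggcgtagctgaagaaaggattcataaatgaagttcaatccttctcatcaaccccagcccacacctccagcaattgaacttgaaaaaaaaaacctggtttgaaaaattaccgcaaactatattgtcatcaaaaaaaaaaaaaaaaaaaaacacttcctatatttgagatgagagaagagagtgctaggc
CSF2RA: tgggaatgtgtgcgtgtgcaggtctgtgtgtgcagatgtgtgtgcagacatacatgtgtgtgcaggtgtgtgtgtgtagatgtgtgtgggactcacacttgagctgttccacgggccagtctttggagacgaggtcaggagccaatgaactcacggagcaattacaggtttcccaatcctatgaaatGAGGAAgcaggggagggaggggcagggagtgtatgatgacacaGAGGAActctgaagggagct
IL6R: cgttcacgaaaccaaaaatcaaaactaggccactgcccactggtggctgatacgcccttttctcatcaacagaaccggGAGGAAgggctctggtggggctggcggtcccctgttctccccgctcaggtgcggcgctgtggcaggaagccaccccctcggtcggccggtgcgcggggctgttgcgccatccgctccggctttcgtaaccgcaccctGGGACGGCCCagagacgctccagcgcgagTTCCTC
The IL2RA window held a pair of overlapping NF-kB matches on opposite strands, beginning 211 and 210 bases before the start, and no PU.1 core. CSF2RA held 2 PU.1 cores, at 63 and 20 bases before the start, and IL6R held 2 PU.1 cores, at 172 and 6, with 1 NF-kB match at 35. Over 35116 RefSeq windows of the same length, 23.6% held the PU.1 core and 22.6% the NF-kB form. The STAT form TTCNNNGAA (6.57% of windows) and the RUNX form TGTGGT (11% of windows) were found in none of these 3 windows. A match is a string of letters and no evidence of binding.

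The interleukin 2 receptor gave the largest change of the set. IL2RA (ENSG00000134460; GRCh38 chromosome 10, 6010689 to 6062370, minus strand) held 12, 49 and 71 counts in overexpressing replicates 1, 2 and 3 and 0 counts in each control. These are 0.214, 0.869 and 1.39 CPM in the overexpressing libraries, so the transcript stayed rare even where it was found. Its level averaged 0.825 ± 0.590 CPM (SD, n = 3) in overexpressing cells, at least 15.5-fold higher than a floor of 3 counts per control library, which is 0.0531 CPM. By library this bound was 4.03, 16.4 and 26.2 in overexpressing replicates 1, 2 and 3. In every library more genes hold a count of 4 than of 3 or 5, so 1 fragment may stand for about 4 counts. With a floor of 3 such fragments per control library, added after the values were seen, the bound was 3.88 for the mean and 1.01, 4.09 and 6.54 by library, so that replicate 1 then lay at the floor. With counts divided by 4 the values were 3, 12 and 18 and the gene no longer passed the filter. No p is read from IL2RA, for the reason of the filter given above.

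IL2RB, the signalling beta chain, is no member of the set but completes this receptor, and its level differed the same way. IL2RB had 3.21, 2.61 and 2.45 CPM in the overexpressing libraries, against 0.0714, 0 and 0.214 CPM in the controls. The groups were far apart in every library, replicate 1 included. IL2RB too passed the filter only through the overexpressing libraries, with 4, 0 and 12 counts in the controls, so its edgeR call (log2 fold change 4.83, adjusted p = 0.00349) adds little to these values. IL2RG, the common gamma chain (chromosome X, 71107404 to 71112108, minus strand), was the most abundant of the 10 per length and did not pass the test. It had 238, 245 and 264 CPM in the overexpressing libraries and 247, 236 and 284 CPM in the controls, which overlap throughout. Its log2 fold change was -0.04 with a 95% interval of -0.24 to 0.16. The 326 coding genes of at least 5 CPM on its chromosome had a median log2 fold change of 0.49, above that interval. Of the 2760 exon bases of IL2RG, 1403 are shared with AL590764.2 on the same strand, so part of its count is uncertain. The gene of IL-2 itself had no count in any library.

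Markers of other blood cells moved with IL2RA in part. The 10 B cell markers summed to 40.2, 105 and 104 CPM in overexpressing replicates 1, 2 and 3. In the controls they summed to 53.6 to 60.5 CPM. Of the 9 tested, 4 were higher (14.2% of all tested genes) and 1 lower (9.94%). MS4A1 (CD20) had 0.910, 22.4 and 22.7 CPM in the overexpressing libraries against 0.464 to 2.59 CPM in the controls. IL2RA was likewise higher in replicates 2 and 3 than in replicate 1, whereas IL2RB was not. The 12 T and NK cell markers summed to 114 to 133 CPM in overexpressing libraries and 104 to 119.8 CPM in controls. Of the 5 tested, 2 were higher (14.2% of all tested genes) and 2 lower (9.94%), and NKG7 and NCAM1 made up most of the sum. Of the called genes, LCK passed the filter on low counts only through the overexpressing libraries and CD2 only through the controls. Those calls therefore add little. LCK, a T cell kinase, had 0.196, 1.15 and 1.08 CPM in overexpressing replicates 1, 2 and 3 and 0.0714 to 0.123 CPM in controls, again higher in replicates 2 and 3. CD2 ran the other way, with 0, 0.142 and 0 CPM in overexpressing replicates 1, 2 and 3 and 0.91 to 1.18 CPM in controls. TRAC had 0.589, 1.05 and 1.31 CPM in those replicates and 0.74 to 1.05 CPM in controls, which overlap. The defining genes CD3D, CD3E and CD3G were under 0.1 CPM in every library. The part of B or T lineage transcripts in the IL2RA values was not tested.

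The IL-4 receptor alpha chain, IL4R (chromosome 16, 27313668 to 27364778, plus strand), joins IL2RG or IL13RA1 to bind IL-4 and IL-13. IL4R had 99.5, 97.6 and 92.3 CPM in the overexpressing libraries and 75.9, 79.3 and 89.0 CPM in the controls. All overexpressing libraries were above all controls, yet the log2 fold change of 0.24 (95% interval 0.06 to 0.43) missed the threshold with an edgeR adjusted p = 0.0567. It crossed the threshold under 4 of 15 alternatives, among them the fit without control replicate 3 (adjusted p = 0.00891, range 0.00891 to 0.215). Per length, the ratio of IL4R to IL2RG was 0.196, 0.187 and 0.164 in overexpressing cells and 0.144, 0.157 and 0.147 in controls, with no overlap. The exact two-sided permutation p was 0.1, the smallest that 3 against 3 allows (0.5 adjusted over the 5 chain pairs computed). IL13RA1, the partner in the second IL-4 receptor, fell to 22.6 ± 2.38 CPM in overexpressing cells, against 32.3 ± 1.32 CPM in controls (SD, n = 3 each; log2 fold change -0.51, edgeR adjusted p = 0.00722). The messengers of IL-4 and IL-13 and the decoy chain IL13RA2 had no count in any library.

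A group of 7 chains was taken as the partners of IL2RG by textbook pairing, a grouping made after the values were seen. Of these 7, 4 were called higher (IL2RA, IL2RB, IL15RA and IL21R; 14.2% of all tested genes), 0 lower (9.94%) and 3 did not pass the test (IL4R, IL7R and IL9R). As IL2RA and IL2RB were tested only because they were high in overexpressing cells, this count is a description. IL15RA, which presents IL-15, had 13.7 ± 0.814 CPM in overexpressing cells and 8.83 ± 0.488 CPM in controls (SD, n = 3 each; log2 fold change 0.64, edgeR adjusted p = 0.00547). IL21R had 6.67 ± 1.13 CPM in overexpressing cells and 2.71 ± 0.0973 CPM in controls (log2 fold change 1.30, edgeR adjusted p = 0.00194). IL15RA shares exon bases with AL137186.2 and IL21R lies across from IL21R-AS1, so part of either count is uncertain. IL7R had 3.32, 0.355 and 0.529 CPM in overexpressing replicates 1, 2 and 3 and 4.19 to 4.34 CPM in controls, so all 3 lay below, with replicate 1 the closest. Its log2 fold change was -1.60 over all 6 libraries (edgeR adjusted p = 0.165) and -3.27 without overexpressing replicate 1 (adjusted p = 5.0e-04).

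The GM-CSF receptor changed in its binding chain. CSF2RA (ENSG00000198223; chromosome X, 1268800 to 1310381, plus strand) binds GM-CSF, and CSF2RB carries the signal. CSF2RA had 20.6, 20.7 and 22.5 CPM in the overexpressing libraries and 15.7, 18.4 and 16.4 CPM in the controls. Every overexpressing library was above every control, with a log2 fold change of 0.34 (95% interval 0.11 to 0.57; edgeR adjusted p = 0.0425). The call was held by a thin margin: it was lost without any 1 of the 6 libraries (adjusted p 0.0623 to 0.138, range over 15 alternatives 0.0286 to 0.138). With overexpressing replicate 1 alone the fold change was 0.29 (adjusted p = 0.395). The gene lies in the pseudoautosomal region, which X and Y share, and the sources used here do not say how reads that match both copies were counted. The 0.49 median of the 326 coding genes of at least 5 CPM on its chromosome lay within the 95% interval of its change. Of those genes, 219 were called higher and 10 lower, so a higher call was common on this chromosome.

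CSF2RB (chromosome 22, 36913628 to 36940449, plus strand) had 20.2, 24.4 and 18.2 CPM in overexpressing libraries and 21.4, 20.5 and 16.7 CPM in controls. The groups overlap, and the 95% interval of its log2 fold change of 0.10 ran from -0.23 to 0.43 (edgeR adjusted p = 0.659). Per length the ratio of CSF2RA to CSF2RB was 1.33, 1.11 and 1.61 in overexpressing cells and 0.957, 1.17 and 1.28 in controls (exact permutation p = 0.4). IL3RA, the IL-3 binding chain (CD123), had 1.84, 1.17 and 1.14 CPM in overexpressing cells and 0.964, 1.32 and 1.23 CPM in controls, again with overlap. Relative to CSF2RB, IL3RA stood per length at 0.266, 0.141 and 0.182 in overexpressing cells and 0.131, 0.189 and 0.216 in controls (exact permutation p = 0.8). IL5RA, the chain for IL-5, had no count in any library. The messenger of GM-CSF, CSF2, had at most 0.176 CPM, and those of IL-3 and G-CSF had no count.

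The G-CSF receptor CSF3R (chromosome 1, 36466043 to 36483278, minus strand), which works as a pair of identical chains, was among the most abundant of the set. It had 186, 180.4 and 172 CPM in the overexpressing libraries and 197, 199 and 217 CPM in the controls. All overexpressing libraries lay below all controls. The log2 fold change of -0.19 (95% interval -0.34 to -0.03) missed the threshold (edgeR adjusted p = 0.0817) and did so under all 15 alternatives (adjusted p 0.0569 to 0.205). CSF1R, the macrophage growth factor receptor, had 1.66 to 1.95 CPM in overexpressing cells and 1.29 to 1.89 CPM in controls.

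**Figure D2:**
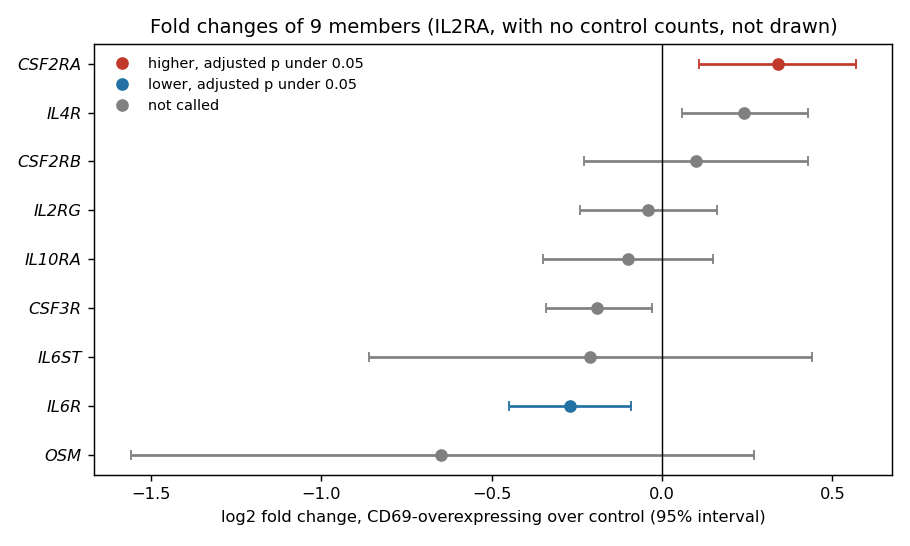
Log2 fold change of 9 of the 10 genes, CD69-overexpressing over control (x axis), with 95% intervals from the edgeR fit. CSF2RA is called higher and IL6R lower, and the intervals of IL4R and CSF3R also leave out 0 although neither passed after adjustment over all genes.

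The interleukin 6 family showed a lower binding chain and an uneven shared chain. IL6R (ENSG00000160712; chromosome 1, 154405193 to 154469450, plus strand) had 239, 239 and 213 CPM in the overexpressing libraries and 288, 287 and 257 CPM in the controls. Every overexpressing library was below every control, and the log2 fold change was -0.27 (95% interval -0.45 to -0.09; edgeR adjusted p = 0.0373). The call was lost without any 1 of the libraries other than control replicate 3 (adjusted p 0.0587 to 0.123, range over 15 alternatives 0.00468 to 0.123). With overexpressing replicate 1 alone the fold change was -0.22 (adjusted p = 0.372). Counts per gene do not separate messengers of the membrane receptor from those of its soluble form.

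IL6ST, the signalling chain gp130 (chromosome 5, 55935095 to 55994993, minus strand), had 20.1, 12.5 and 9.23 CPM in overexpressing replicates 1, 2 and 3 and 18.1, 17.8 and 12.5 CPM in the controls. Replicate 1 was above all controls and replicate 3 below all of them, and the groups overlap. The 95% interval of its log2 fold change of -0.21 was -0.86 to 0.44 (edgeR adjusted p = 0.634), and the direction turned with overexpressing replicate 1 alone against the controls (0.31), a comparison added after the values were seen. Without that library the fold change was -0.57 (adjusted p = 0.0973, range 0.0973 to 0.980). Some 797 of its 9292 exon bases lie across from AC008914.1 on the other strand. Per length, IL6R exceeded IL6ST 17.1, 27.4 and 33.3 times in overexpressing cells and 22.9, 23.2 and 29.6 times in controls (exact permutation p = 1).

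Of the 6 chains that pair with IL6ST by textbook, again grouped after the values were seen, 5 were tested, of which 1 rose (14.2% of all tested genes) and 2 fell (9.94%). IL11RA rose to 6.10 ± 0.703 CPM in overexpressing cells, against 2.50 ± 0.854 CPM in controls (SD, n = 3 each; log2 fold change 1.29, edgeR adjusted p = 0.0137), and shares exons with GALT. IL27RA, the IL-27 chain, fell to 36.4 ± 2.74 CPM in overexpressing cells, against 58.0 ± 1.52 CPM in controls (log2 fold change -0.67, edgeR adjusted p = 8.2e-04). The other that fell was IL6R. CNTFR was not tested, with counts in overexpressing replicate 3 only.

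**Figure D3:**
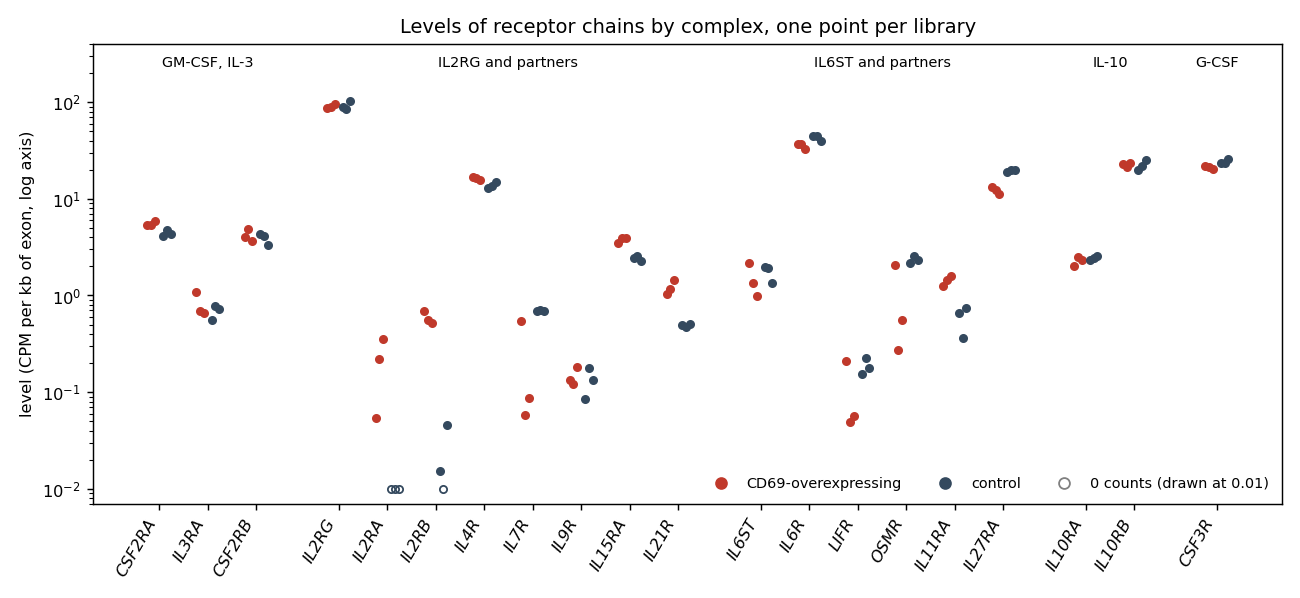
Level per kb of exon of each receptor chain (y axis, CPM per kb, log axis), CD69-overexpressing in red left of control in dark blue, 1 point per library, grouped by the chain they share. IL2RG and IL6R are the highest of the chains drawn, IL2RA has 0 counts in all 3 controls and IL2RB in 1 (open circles, drawn at 0.01), and OSMR, LIFR and IL7R split the overexpressing libraries into 1 high and 2 low.

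Oncostatin M, a ligand that acts through IL6ST with OSMR or LIFR, was rare and divided the overexpressing libraries. OSM (chromosome 22, 30262829 to 30266840, minus strand) held 44, 20 and 21 counts in overexpressing replicates 1, 2 and 3 and 48, 46 and 43 counts in the controls. In CPM these were 0.785, 0.355 and 0.411 in overexpressing cells and 0.857, 0.811 and 0.767 in controls. Replicate 1 lay within the control range, and replicates 2 and 3 lay below it. The log2 fold change was -0.65 (95% interval -1.56 to 0.27; edgeR adjusted p = 0.281), and -1.09 without overexpressing replicate 1 (adjusted p = 0.0887, range 0.0887 to 0.551).

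The same split ran through other genes of this family, which were singled out after their values were seen. LIF, whose gene lies 16 kb from OSM, had 3.36, 0.603 and 0.411 CPM in overexpressing replicates 1, 2 and 3 and 3.30 to 4.51 CPM in controls. IL6 had 2.46, 0 and 0.431 CPM in overexpressing cells and 2.45 to 2.78 CPM in controls. OSMR, the specific oncostatin M chain, had 14.7, 1.97 and 4.04 CPM in overexpressing cells and 15.7 to 18.4 CPM in controls, and LIFR had 2.48, 0.585 and 0.666 CPM in overexpressing cells and 1.82 to 2.64 CPM in controls. None of these 4 passed the test over all 6 libraries. Without overexpressing replicate 1 all 4 passed. Their log2 fold changes were then -2.91 for LIF (edgeR adjusted p = 0.00113) and -3.63 for IL6 (0.036). Those of OSMR and LIFR were -2.51 (0.00171) and -1.81 (0.00684). As the genes were singled out for this split, these fits only describe it.

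Part of the fibroblast and epithelial markers followed the same order. The 8 genes summed to 108, 40.0 and 27.9 CPM in overexpressing replicates 1, 2 and 3 and to 106 to 119 CPM in controls. KRT8, a keratin, had 56.9, 14.3 and 11.3 CPM in the overexpressing libraries and 55.6 to 58.5 CPM in the controls, and KRT18 and COL1A2 were likewise highest in replicate 1 of that group. Other markers ran otherwise: CDH1 had 1.23, 1.81 and 2.25 CPM, EPCAM 1.21, 1.24 and 0.979 CPM, COL3A1 0.303, 3.72 and 0.0784 CPM and DCN 0.161, 1.22 and 0 CPM in overexpressing replicates 1, 2 and 3. The part of such transcripts in the OSM, LIF and OSMR values was not tested.

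**Figure D4:**
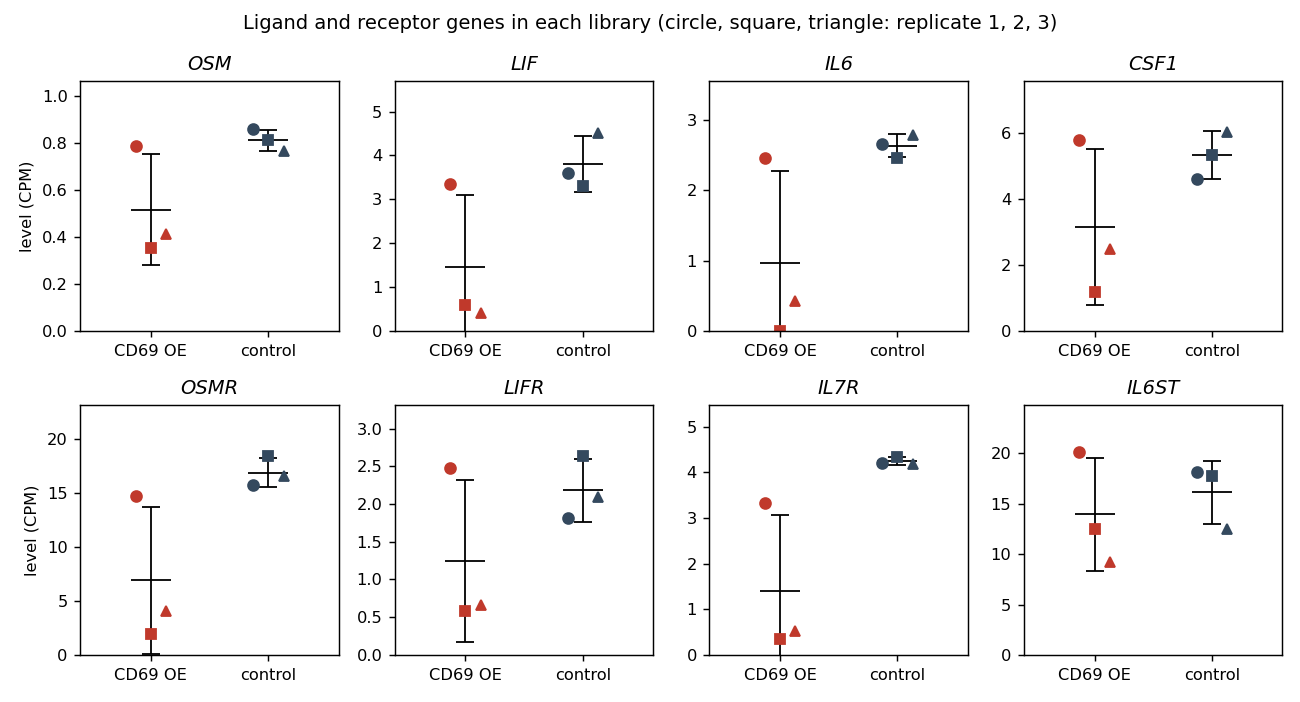
Level of OSM, LIF, IL6, CSF1, OSMR, LIFR, IL7R and IL6ST in every library (y axis, CPM, starting at 0), CD69-overexpressing (CD69 OE) left and control right, with mean and SD in black (n = 3, bars cut at 0). In all 8 genes overexpressing replicate 1 (circle) is the highest of its group, and replicates 2 and 3 are lower.

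IL10RA, the binding chain for IL-10 (chromosome 11, 117986348 to 118003037, plus strand), had 16.3, 20.2 and 18.9 CPM in overexpressing libraries and 19.1, 19.6 and 20.6 CPM in controls. The groups overlap, and the log2 fold change of -0.10 had a 95% interval of -0.35 to 0.15 (edgeR adjusted p = 0.547). IL10RB, its signalling partner, had 103 ± 5.46 CPM in overexpressing cells and 102 ± 12.8 CPM in controls (SD, n = 3 each). Per length IL10RA stood at 0.0874, 0.117 and 0.0983 of IL10RB in overexpressing cells and at 0.119, 0.11 and 0.1 in controls (exact permutation p = 0.4). IL10RB shares exons with AP000295.1, so its count is in part uncertain.

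Set in order by CPM per kb of exon, the genes ran alike in both groups from IL2RG, IL6R, CSF3R and IL4R at the top through CSF2RA, CSF2RB, IL10RA and IL6ST to OSM and IL2RA. IL2RG averaged 90.1 ± 4.89 CPM per kb in overexpressing cells and 92.7 ± 9.17 in controls, and IL6R averaged 35.7 ± 2.28 in overexpressing cells and 43.0 ± 2.72 in controls (SD, n = 3 each). At the low end OSM averaged 0.245 ± 0.111 CPM per kb in overexpressing cells and 0.384 ± 0.0211 in controls. Neighbours in this order overlapped for IL10RA and IL6ST and for OSM and IL2RA in overexpressing cells, and for CSF2RA and CSF2RB in controls. All other neighbours were apart in every library of their group.

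Among 35 other cytokine receptor chains, 27 were tested. Of these, 8 were called higher (14.2% of all tested genes), 5 lower (9.94%) and 14 did not pass. Their median absolute log2 fold change was 0.64 against 0.32 over all tested genes. IL2RB and IL12RB1, among the 8, were tested only through the overexpressing libraries, and the list was chosen with earlier results known. The count and the median are therefore a description. Of the 8 and 5, IL2RB, IL15RA, IL21R, IL11RA, IL13RA1 and IL27RA are given above. IL12RB1, shared by IL-12 and IL-23, had 2.85 ± 0.357 CPM in overexpressing cells and 0.195 ± 0.0631 CPM in controls (SD, n = 3 each), and it too passed the filter only through the overexpressing libraries. IL31RA, whose gene lies 12.2 kb from IL6ST, rose to 26.1 ± 4.01 CPM in overexpressing cells, against 12.6 ± 1.35 CPM in controls (1.05; adjusted p = 0.00166). CRLF2, the TSLP receptor chain 56 kb from CSF2RA, rose to 5.25 ± 1.27 CPM in overexpressing cells, against 1.6 ± 0.271 CPM in controls (1.71; adjusted p = 0.00238).

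The progenitor growth factor receptors were lower. FLT3 fell to 3.32 ± 0.741 CPM in overexpressing cells, against 12.0 ± 0.332 CPM in controls (log2 fold change -1.85; edgeR adjusted p = 4.5e-04). KIT, the stem cell factor receptor, fell to 0.642 ± 0.202 CPM in overexpressing cells, against 3.06 ± 0.547 CPM in controls (-2.25; adjusted p = 0.00168). IFNGR1, the interferon gamma binding chain, fell by 0.25 on the log2 scale (edgeR adjusted p = 0.0431; up to 0.149 over alternatives). IFNLR1 rose by 2.61 (adjusted p = 0.0373; up to 0.208), with 0.303, 2.31 and 2.43 CPM in overexpressing replicates 1, 2 and 3 against 0.194 to 0.375 CPM in controls. Of 34 ligand genes, 11 had no count in any library and 13 were tested. FLT3LG, the FLT3 ligand, rose by 1.13 (edgeR adjusted p = 0.0297; up to 0.0839 over alternatives) and shares exons with 2 other genes, and IL15 had 0.107, 0.0709 and 0 CPM in overexpressing cells and 0.339 to 0.582 CPM in controls (adjusted p = 0.0443; up to 0.150), having passed the filter only through the controls. These 2 calls of 13 are 1 in each direction, beside 14.2% and 9.94% of all tested genes. Because of that filter, the call of IL15 adds little to its values.

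Downstream of the receptors, 35 of 36 kinases, STATs and regulators were tested, of which 6 rose (14.2% of all tested genes), 5 fell (9.94%) and 24 did not pass. STAT5A, used by the GM-CSF and IL-2 receptors, rose to 86.5 ± 2.22 CPM in overexpressing cells, against 56.2 ± 3.72 CPM in controls (SD, n = 3 each; log2 fold change 0.62, edgeR adjusted p = 7.8e-04). STAT3, used by the IL-6 and IL-10 receptors, rose by 0.39 (adjusted p = 0.00807) and JAK2, the kinase bound by CSF2RB, by 0.42 (adjusted p = 0.0434; up to 0.154 over alternatives). JAK3, the kinase bound by IL2RG, fell by 0.25 on the log2 scale (adjusted p = 0.0366; up to 0.142), and STAT6, used by IL4R, fell by 0.20 (adjusted p = 0.0383; up to 0.120). SOCS2, an inhibitor induced by STAT5, fell by 0.82 (adjusted p = 0.00234). PTPN1 rose by 0.35 (adjusted p = 0.0113; up to 0.0607 over alternatives), PIAS1 by 0.41 (0.0208; up to 0.0782) and STAT2 by 0.38 (0.0366; up to 0.133), and the adaptor SH2B3 fell by 0.41.

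Of 25 genes listed as STAT targets, which include IL2RA and OSM, 6 were called higher (14.2% of all tested genes), 5 lower (9.94%) and 14 did not pass. IL2RA is among the 6, and it was tested only because it was high in overexpressing cells, so its call adds nothing here. PIM1 had 149.9 ± 12.5 CPM in overexpressing cells and 74.9 ± 1.86 CPM in controls (SD, n = 3 each; log2 fold change 1.00, edgeR adjusted p = 1.2e-04). CCND3 rose by 0.94, FOS by 0.99, PIM2 by 0.85 and JUNB by 0.75. In the opposite direction CCND2 had 28.1 ± 1.88 CPM in overexpressing cells and 71.1 ± 5.01 CPM in controls (-1.34; adjusted p = 5.9e-05). BCL2L1 fell by 0.61 and ICAM1 by 0.37 (adjusted p = 0.00989; up to 0.0536 over alternatives), and ID1 fell by 0.60 (adjusted p = 0.0377; up to 0.117). SOCS2, given above, is on this list too. The feedback inhibitors CISH and SOCS3, which STAT5 and STAT3 induce, had log2 fold changes of -0.07 (adjusted p = 0.581) and 0.31 (adjusted p = 0.445). The list thus held changes in both directions, with a median of 0.03 against 0.01 over all tested genes.

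**Figure D5:**
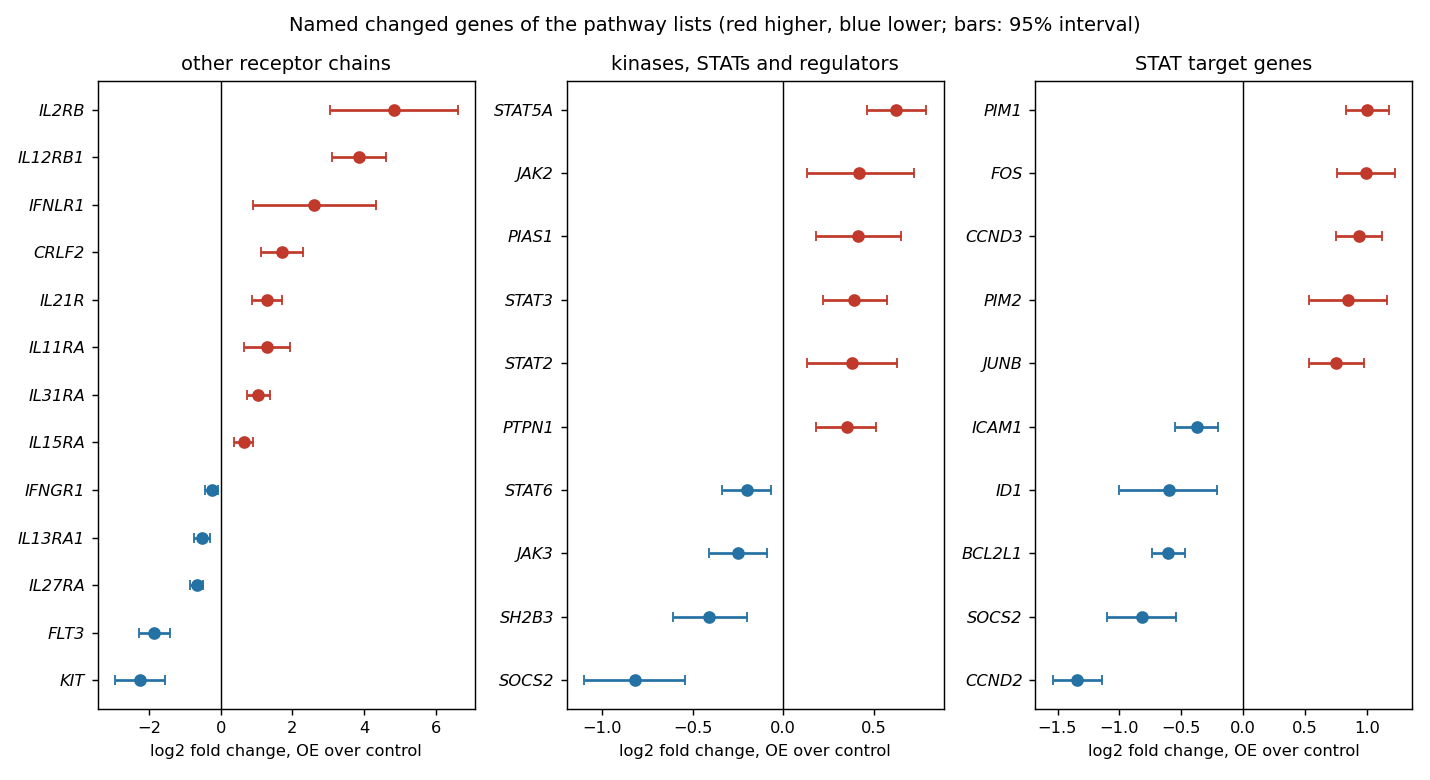
Log2 fold changes, CD69-overexpressing over control (x axes), with 95% intervals, of named genes that passed the test among other receptor chains, kinases, STATs and regulators, and STAT targets, without IL2RA. Red is higher and blue lower, and each panel has its own scale: the receptor panel reaches 4.83 for IL2RB, while the regulators drawn lie between -0.82 and 0.62.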

How the data were processed

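The deposited table holds whole-number values per Ensembl gene and library, treated as estimated counts, since a count of 4 is more frequent than 3 or 5 in every library and 1 fragment may stand for about 4 counts. Per the submitters' processing notes the authors used FastQC, fastp, STAR and featureCounts (Subread) with GRCh38. Versions, annotation, strand setting and counting unit are not given in the sources used here. Of 61806 genes, 61757 had an entry in the gene name table.

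Genes kept by filterByExpr (19485) were scaled by TMM and tested two-sided with edgeR 4.0.16 (glmQLFit, glmQLFTest; R 4.3.3), Benjamini-Hochberg adjusted at 0.05 over all tested genes. Intervals are 95% from the same fit. Chain ratios, per kb of merged GENCODE 29 exons (GRCh38), were tested by exact permutation of the 6 libraries. Positions come from GENCODE and promoters from RefSeq (GRCh38.p14), found for 8 of the 10 genes. CSF2RB and OSM had no entry there. The intervals include the spread between libraries, and the floors cover counting error only. The median for chromosome X uses its coding genes at 5 CPM or more.

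The alternatives tried were scaling by RLE, by upper quartile or not at all, no filter, 50 counts in 3 libraries, DESeq2 1.42.0, limma-voom (limma 3.58.1), the replicate number as a block, counts divided by 4, each library left out, and, added after seeing the data, overexpressing replicate 1 alone. The genes and lists were chosen with earlier results of these data known. All 10 genes are named, and of each list the called genes with the smallest p (up to 5 in each direction) and the partner chains of the 10, except 1 gene that is not reported here. Libraries of a group differed by more than counting noise (chi-square over degrees of freedom, counts divided by 4, 2.37 to 14.2). Figures were drawn with matplotlib 3.10.9.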

Additional observations from a re-analysis of the deposited data

How the results depend on the processing

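IL2RA was not tested with counts divided by 4, with 50 counts in 3 libraries or with overexpressing replicate 1 alone. Its calls elsewhere say nothing about stability, since it was tested only through the libraries where it was high. The members called higher numbered 2, against 3 without scaling factors, 1 with upper-quartile scaling, 1 without a filter and 0 with overexpressing replicate 1 alone, and ranged from 1 to 2 when each library was left out in turn. The members called lower numbered 1, against 0 without scaling factors, 0 without a filter and 0 with overexpressing replicate 1 alone, and ranged from 0 to 1 when each library was left out. Over all genes, 2767 were higher and 1937 lower. Leaving out each library gave 1783 to 2917 higher and 1137 to 2226 lower, and overexpressing replicate 1 alone gave 797 and 380. The fold changes of CSF2RB (-0.03 to 0.19), IL2RG (-0.11 to 0.05) and IL6ST (-0.57 to 0.01) turned sign when a library was left out, and that of IL6ST was 0.31 with overexpressing replicate 1 alone. The log2 ratio of IL6R to IL6ST differed by -0.21 to 0.27 between the groups and that of IL3RA to CSF2RB by -0.13 to 0.33 when each library was left out. The cause was not tested. With the replicate number as a block, 3194 genes were higher and 2669 lower and the members' counts were 2 and 1. The numbers did not pair the libraries (correlations of same-numbered deviations -0.0331, 0.0520 and 0.0714). IL2RA/IL2RG was not computed because controls held 0 counts. Depth limits IL2RA and OSM, at under 2 CPM in every library.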

Other observations

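Of 8 genes of receptor shedding and traffic, all tested, 2 rose (14.2% of all tested genes) and 1 fell (9.94%). The rises were those of the granule proteases ELANE and PRTN3, by 1.92 and 2.40 on the log2 scale (edgeR adjusted p = 7.6e-05 and 2.0e-05), and the fall was that of the proprotein convertase FURIN, with 128 ± 3.88 CPM in overexpressing cells and 162 ± 4.85 CPM in controls (SD, n = 3 each; adjusted p = 0.00569). ADAM17, the sheddase of IL6R, had 41.5 to 57.4 CPM in overexpressing cells and 36.4 to 48.5 CPM in controls, which overlap.

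Of 14 transcription factors that act on receptor genes, 13 were tested, of which 1 rose (14.2% of all tested genes) and 2 fell (9.94%). RUNX1 fell by 0.84 on the log2 scale, with 102 ± 4.87 CPM in overexpressing cells and 182 ± 18.7 CPM in controls (SD, n = 3 each; edgeR adjusted p = 5.1e-04). SPI1, which encodes PU.1, fell by 0.37 (adjusted p = 0.0398; up to 0.151 over alternatives), and IRF8 rose by 0.71 (adjusted p = 1.4e-04). CEBPA had a log2 fold change of -0.18 (adjusted p = 0.216), with overlapping groups.

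Several of the 10 genes lie beside another cytokine receptor or ligand gene. IL15RA lies 32.5 kb from IL2RA, IL21R 37.4 kb from IL4R, IL31RA 12.2 kb from IL6ST, CRLF2 56 kb and IL3RA 26.2 kb from CSF2RA, IL2RB 185 kb from CSF2RB, and LIF 16 kb from OSM. The neighbours' log2 fold changes were 0.64, 1.30, 1.05, 1.71, 0.24, 4.83 and -1.38 in that order, against 0.24 for IL4R, -0.21 for IL6ST, 0.34 for CSF2RA, 0.10 for CSF2RB and -0.65 for OSM. IL2RA has no finite fold.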
